A study of Homo sapiens with 24 samples.

Results

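The replication-dependent histone genes of human chromosome 6 were examined in the human line PANC-1, which came from a pancreatic ductal carcinoma. They were chosen by position and name alone: protein-coding genes of GENCODE release 44 on GRCh37 (hg19) in the histone region of the short arm whose symbols begin with H1-, H2AC, H2BC, H3C or H4C, or with HIST1 as an older name. The rule found 50 of 20163 coding genes, namely 6 genes for the linker histone H1, 11 for H2A, 12 for H2B, 10 for H3 and 11 for H4. Among them HIST1H4B is the older symbol of H4C2, and H2BC7, H2BC8 and H4C6 were not analysed here.

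Chromatin of 3 groups was profiled by ChIP-seq for H3K4me3, a mark of active promoters, H3K27ac, a mark of active promoters and enhancers, and H3K27me3, the mark of Polycomb repression. Cells of the group siControl received a control siRNA and no TGFβ. Cells of siControl+TGFβ received the same siRNA and then TGFβ at 10 ng/ml for 48 hours, the agent used to induce epithelial-mesenchymal transition. Cells of siPHF13+TGFβ received an siRNA against PHF13, a reader of methylated H3K4, and the same TGFβ. Each group had 2 libraries for each mark, which gives 18 peak lists. PANC-1 is 1 cell line, and no source used here says whether the 2 libraries of a group came from separate cultures, so p-values measure only the spread between these libraries, which may be technical.

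Histone genes of this kind are transcribed in S phase, when newly replicated DNA must be packed. They lack introns, their mRNAs end in a stem-loop rather than a poly(A) tail, and NPAT in the histone locus body activates them together. The core histones H2A, H2B, H3 and H4 form the nucleosome, and H1 binds the DNA between nucleosomes.

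Since the peak lists carry no counts of reads, sequencing depth is unknown and intervals that would need it are not given. siPHF13+TGFβ replicate 1 had the shortest list for each mark, with 6004 H3K27ac peaks against 19413 to 36104 in the other 5 libraries, 27869 H3K4me3 peaks against up to 39202, and 59573 H3K27me3 peaks against up to 165717. Results that rest on it are given with and without it. Peak names inside the lists labelled siPHF13+TGFβ read NCT, which the study uses for siControl+TGFβ, and those inside the lists labelled siControl+TGFβ read 3AT. Groups follow the labels, so directions that involve either group depend on those labels. Of 5 ductal genes, KRT8, KRT18, KRT19 and SOX9 had H3K4me3 in all 6 lists and KRT7 in 0, while 7 genes of blood, liver, endothelial, endocrine and acinar cells had it in 0 lists. The marks do not measure how far PHF13 was depleted, and in bulk chromatin fewer marked cells and less mark per cell cannot be told apart.

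The 50 start sites (TSSs) fell into 3 subclusters. The first held 29 genes between 26018015 and 26285762 of chromosome 6, the second 5 genes between 27100574 and 27114885, and the third 16 genes between 27775707 and 27861203. The transcripts used are short, at 357 to 797 bp (median 486 bp), and the 49 canonical ones have 1 exon. HIST1H4B has no canonical transcript, so its whole gene was used. Some genes are annotated over longer spans, such as H2BC4 (chr6:26086545-26124154). Of the 50 genes, 16 start beside a member on the opposite strand, which includes 7 H2A/H2B pairs whose TSSs lie 194 to 251 bp apart. A window of 1000 bp to each side of the TSS was used, and 29 members share part of it with another member, so values of neighbours are not independent.

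The promoter letters are shown first, because the families differ in them. Where the edges of peaks lie relative to these letters was not measured. In the 250 bp before to 50 bp after the TSS, with both strands searched, CCAAT (the box bound by NF-Y) was found in 43 members (86%) and in 35.8% of other coding genes. TATAAA was found in 34 members (68%) against 9.67%, and it began 40 to 20 bp before the TSS in 27 members (54%) against 4.23%. The octamer ATTTGCAT, the site of Oct-1, was in 18 members (36%) against 1.49%, and these were 9 of 11 H2A and 9 of 12 H2B genes. Partners of the divergent H2A/H2B pairs share most of the stretch searched, so the same site can count for both genes. This holds for CCAAT and TATAAA as well. The H4 family stood lowest for CCAAT, with 4 of 11 genes. AAACACA, known as the H1 box, was in 6 of 6 H1 genes and in 0 of the other 44 members, against 4.21% of other coding genes. The windows were poorer in G and C than those of other coding genes (median 47.7% against 55.9%) and had more CpG for that content (observed over expected 0.75 against 0.63), with the lowest values at H1-6 (0.47) and H4C9 (0.52). These are letter matches and not measured binding sites.

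The H1 promoters are shown because the H1 box was found in this family alone among the members. Each line runs from 200 bp to 1 bp before the TSS, 5′ to 3′ on the strand of the gene, read from GRCh37 at H1-1 chr6:26018016-26018215 (minus strand), H1-2 chr6:26056699-26056898 (minus strand), H1-3 chr6:26235216-26235415 (minus strand), H1-4 chr6:26156357-26156556 (plus strand), H1-5 chr6:27835367-27835566 (minus strand) and H1-6 chr6:26108364-26108563 (minus strand). Capitals mark the H1 box, the CCAAT box and TATAAA, on either strand.
H1-1: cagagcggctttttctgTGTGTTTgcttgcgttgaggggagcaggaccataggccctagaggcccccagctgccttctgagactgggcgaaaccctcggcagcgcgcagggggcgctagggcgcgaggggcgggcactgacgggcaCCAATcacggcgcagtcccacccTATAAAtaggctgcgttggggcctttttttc
H1-2: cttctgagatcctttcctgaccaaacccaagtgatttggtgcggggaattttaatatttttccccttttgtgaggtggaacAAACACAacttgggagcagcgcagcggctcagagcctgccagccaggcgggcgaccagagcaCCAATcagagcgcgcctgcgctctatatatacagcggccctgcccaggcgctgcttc
H1-3: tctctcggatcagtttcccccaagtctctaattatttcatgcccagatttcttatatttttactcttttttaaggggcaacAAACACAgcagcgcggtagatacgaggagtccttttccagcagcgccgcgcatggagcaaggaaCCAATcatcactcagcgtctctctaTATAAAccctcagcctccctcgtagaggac
H1-4: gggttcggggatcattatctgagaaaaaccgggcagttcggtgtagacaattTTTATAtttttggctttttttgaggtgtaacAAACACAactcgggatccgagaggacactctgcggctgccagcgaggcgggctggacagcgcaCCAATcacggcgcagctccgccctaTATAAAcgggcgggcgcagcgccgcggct
H1-5: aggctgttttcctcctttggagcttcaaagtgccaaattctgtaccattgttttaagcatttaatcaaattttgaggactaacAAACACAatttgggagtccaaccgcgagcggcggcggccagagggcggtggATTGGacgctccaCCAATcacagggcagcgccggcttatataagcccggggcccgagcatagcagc
H1-6: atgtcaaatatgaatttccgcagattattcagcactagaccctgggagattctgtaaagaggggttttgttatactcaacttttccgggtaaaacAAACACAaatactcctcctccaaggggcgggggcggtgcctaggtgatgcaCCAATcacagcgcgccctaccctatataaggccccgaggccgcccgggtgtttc

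In the stretch shown, the first base of AAACACA lay 105 to 119 bp before the TSS in H1-2, H1-3, H1-4, H1-5 and H1-6, followed by CCAAT. Further matches lay 242 bp before the TSS in H1-2 and 226 bp before it in H1-5. In H1-1 the H1 box was on the opposite strand, 183 bp before the TSS.

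A divergent promoter is shown because the marks described below were often missing from such DNA. H2AC12 and H2BC12 are transcribed away from each other, and the line gives the 250 bp between their TSSs at chr6:27114635-27114884 (GRCh37, plus strand), with capitals for the CCAAT box, TATAAA and the octamer on either strand.
H2AC12/H2BC12: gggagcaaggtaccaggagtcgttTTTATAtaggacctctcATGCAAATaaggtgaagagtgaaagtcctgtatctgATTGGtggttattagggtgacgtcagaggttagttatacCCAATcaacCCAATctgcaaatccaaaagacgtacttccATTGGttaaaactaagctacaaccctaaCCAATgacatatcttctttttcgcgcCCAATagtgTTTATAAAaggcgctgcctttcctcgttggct

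The stem-loop that ends replication-dependent histone mRNAs is bound by SLBP, and its letters are shown because they differ by family. The stem-loop motif, whose fixed letters are the capitals in the forms below, was searched for on the gene strand within 200 bp of the end of the coding sequence. It was found in 38 members (76%) and in 13 of 19832 other coding genes (0.0656%). The other coding genes here include the replication-dependent histone genes elsewhere in the genome, which were not counted apart. The most frequent form was in 28 H1, H2A, H2B and H3 genes, the next in 8 genes that all encode H4, and the remaining forms in H2AC11 and in H2AC15. Lower-case letters could be any base.
Common form: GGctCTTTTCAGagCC
H4 form: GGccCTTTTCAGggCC
H2AC11 form: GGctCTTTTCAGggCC
H2AC15 form: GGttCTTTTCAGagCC

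H3K4me3 marked most of the histone genes. A peak lay in the window of 40 and 44 members in the siControl pair, 44 and 43 in the siControl+TGFβ pair, and 43 and 44 in the siPHF13+TGFβ pair, or 80% to 88%, against 67.1% to 70.2% of other coding genes. In all 6 lists 40 members were marked, in none 6 members, and in some of the lists 4. Of the 16 other coding genes of the region, 13 (81.25%) were marked in all 6 lists, against 80% of the members. H2A was the most uniform family, with 11 of 11 genes marked in every list, followed by H2B with 11 of 12. The H1 family had 4 of 6, the H3 family 6 of 10 and the H4 family 8 of 11.

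The 6 genes without H3K4me3 in any list were H1-1, H1-6, H4C7, H3C8, H4C9 and H3C12. H1-6 encodes the H1 variant of the testis, and H1-1 encodes a linker histone of restricted expression. The members marked in some lists were H3C4, H3C7, H2BC9 and H4C12. H3C4 was covered by 0 and 956 bp in the siControl pair, 1189 and 1130 bp in the siControl+TGFβ pair, and 0 and 996 bp in the siPHF13+TGFβ pair. H2BC9 had 0 and 1226 bp, 917 and 399 bp, and 421 and 759 bp in the same order, so that siControl held both its lowest and its highest value. H3C7 had 0 and 280 bp, 243 and 0 bp, and 160 and 53 bp. All of this was the edge of the region chr6:26251584-26252809, which holds the TSS of H2BC9. No other H3K4me3 region reached the window of H3C7. H4C12 was narrow wherever it was found, with 0 and 306 bp, 254 and 257 bp, and 218 and 268 bp. Of the 50-base words of the H4C12 and H4C11 transcripts, 80.9% and 80.5% occurred elsewhere in the genome, so the values of these genes are uncertain. Their windows and those of H2BC12, H2AC12, H2BC13, H2AC13, H2AC14 and H2BC14, 8 in all, held more than 10% of such repeated words, which makes the values of all 8 uncertain.

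Promoters of unmarked and marked genes of the H3 and H4 families are shown side by side. In exact letters, each unmarked gene shown held CCAAT or TATAAA, marked H3C11 held both, and marked H4C8 held neither. H4C8 is not typical, as 35 of the 40 genes marked in every list held CCAAT and 28 held TATAAA. Lines run from 150 bp to 1 bp before the TSS on the strand of the gene (GRCh37), with capitals for CCAAT and TATAAA, at H4C7 chr6:26247225-26247374 (minus strand), H4C9 chr6:27106911-27107060 (plus strand), H4C8 chr6:26285763-26285912 (minus strand), H3C8 chr6:26271642-26271791 (minus strand), H3C12 chr6:27858605-27858754 (minus strand) and H3C11 chr6:27840125-27840274 (minus strand). H4C7, H4C9, H3C8 and H3C12 had no H3K4me3 peak, while H4C8 and H3C11 were among the members most widely covered.
H4C7: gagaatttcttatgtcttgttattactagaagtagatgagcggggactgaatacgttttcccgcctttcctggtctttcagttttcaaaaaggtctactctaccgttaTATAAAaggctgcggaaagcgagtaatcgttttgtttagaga
H4C9: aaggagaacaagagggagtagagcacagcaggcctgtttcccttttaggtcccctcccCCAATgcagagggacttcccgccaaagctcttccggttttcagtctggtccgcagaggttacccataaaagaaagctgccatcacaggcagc
H4C8: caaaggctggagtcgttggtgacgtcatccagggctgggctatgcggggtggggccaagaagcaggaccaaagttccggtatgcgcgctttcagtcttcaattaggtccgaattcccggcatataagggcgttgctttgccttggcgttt
H3C8: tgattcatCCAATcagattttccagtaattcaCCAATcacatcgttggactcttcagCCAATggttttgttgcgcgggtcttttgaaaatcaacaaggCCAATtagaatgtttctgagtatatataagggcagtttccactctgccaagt
H3C12: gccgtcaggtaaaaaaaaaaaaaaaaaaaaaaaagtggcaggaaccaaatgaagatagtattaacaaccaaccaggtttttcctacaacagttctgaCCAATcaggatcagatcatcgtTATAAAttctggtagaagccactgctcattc
H3C11: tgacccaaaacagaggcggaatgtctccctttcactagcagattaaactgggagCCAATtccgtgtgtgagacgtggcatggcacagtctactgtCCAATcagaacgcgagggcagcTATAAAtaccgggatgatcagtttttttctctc

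Of the 6 unmarked genes, 5 held CCAAT, 3 held TATAAA, 0 held the octamer and 2 held the stem-loop. Of the 40 genes marked in every list, 35 held CCAAT, 28 TATAAA, 17 the octamer and 33 the stem-loop. The octamer was found only in H2A and H2B genes, and the 6 belong to other families, so its count cannot bear on the mark. The stem-loop was counted only where its fixed letters matched exactly. For repeated sequence, at most 3.48% of the 50-base words in the windows of the 6 unmarked genes occurred elsewhere in the genome. Over the 50 members the median was 1.54% and the highest value 23.6%.

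Among the 40 genes marked in all lists, the H3K4me3 width per 2000 bp window averaged 721.5 to 1827 bp over the 6 libraries. H4C8 was the widest, with 1653 and 1796 bp in the siControl pair, 1952 and 1705 bp in the siControl+TGFβ pair, and 1909 and 1946 bp in the siPHF13+TGFβ pair. Within the H1 family, H1-3 was wide, with 1449 and 1430 bp, 1511 and 1512 bp, and 923 and 1489 bp. H1-2 had 924 and 934 bp, 1448 and 1197 bp, and 940 and 999 bp. H1-4 ranged from 825 to 1166 bp and H1-5 from 705 to 954 bp, so those neighbours in the order overlapped.

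Members with a peak were less widely covered than other coding genes with one in each list, with a median of 1024 to 1454 bp against 1348 to 1586 bp, and their peaks were lower. Fold enrichment over input, as the peak caller gave it for the strongest peak of the window, had a median of 3.54 to 4.42 over marked members, against 5.77 to 6.85 over other marked coding genes. The highest mean log2 fold enrichment was 2.96 at H4C3, 2.80 at H4C11 and 2.76 at H2BC10, and the lowest was 1.31 at H3C10, 1.36 at H2AC7 and 1.61 at H1-4. H4C3 had 8.72 and 8.84 in the siControl pair, 7.57 and 7.12 in the siControl+TGFβ pair, and 7.31 and 7.39 in the siPHF13+TGFβ pair. H3C10, also the narrowest of the 40, stayed between 1.92 and 2.76 in the 6 lists, below each value of H4C3.

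**Figure D1:**
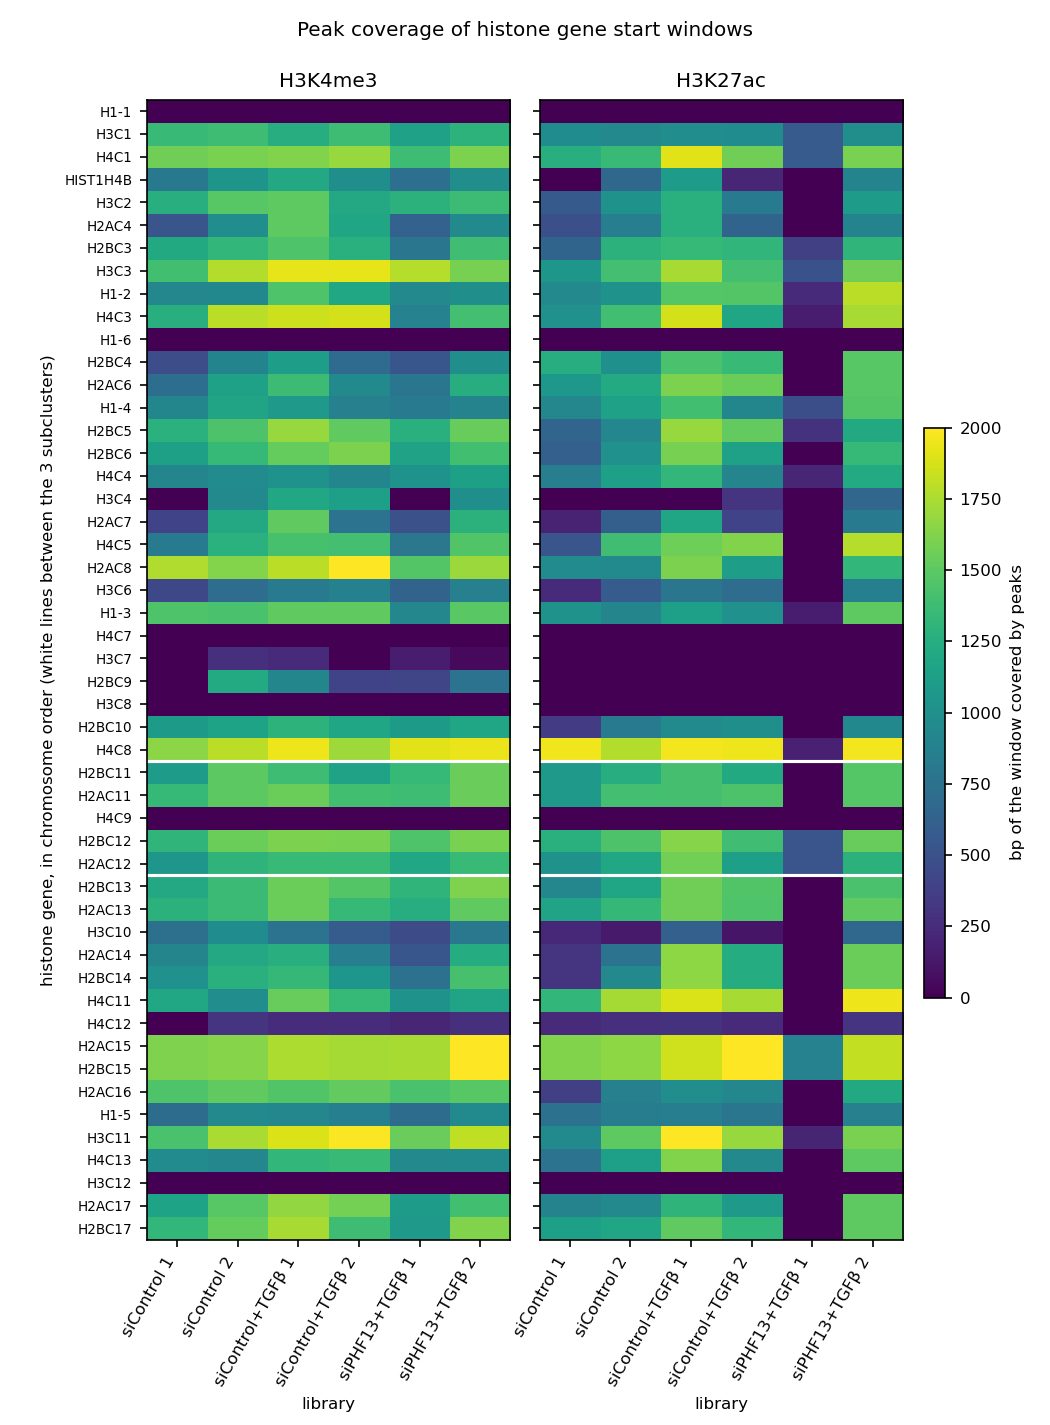
Base pairs of the 2000 bp window around each TSS that lay in H3K4me3 and in H3K27ac peaks, for the 50 members in the order of their position on chromosome 6 and the 6 libraries of each mark. The 6 members without H3K4me3 stand empty in all 6 libraries, and siPHF13+TGFβ replicate 1 is sparse for H3K27ac, with 16 of 50 members marked.

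H3K27ac was found at nearly the same genes. Peaks lay at 40 and 41 members in the siControl pair, 41 and 42 in the siControl+TGFβ pair, and 16 and 42 in the siPHF13+TGFβ pair, where the 16 belong to the library with the short list. Of other coding genes, 44.5% to 57.0% had a peak in the other 5 libraries and 18.2% in that one. In those 5 libraries 40 members were acetylated throughout, and with the short list included 16 were. The 8 members without H3K27ac in any list were the 6 without H3K4me3 together with H3C7 and H2BC9, and H3C4 had it in 2 lists.

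The height of H3K27ac depended on the measure. The median fold enrichment of acetylated members was below that of other acetylated coding genes in all 6 lists, at 3.94 to 4.91 against 5.38 to 7.44. Ranked by q-value instead, the strongest peak of an acetylated member stood at a median percentile of 78.1 to 83.0 of its list in 5 libraries and 54.1 in siPHF13+TGFβ replicate 1, against 66.5 to 77.9 and 52.4 for other coding genes. For H3K4me3 the order was the other way, with 56.9 to 62.8 for members and 72.8 to 78.3 for other coding genes. Over the 16 members acetylated in all lists, the mean log2 fold enrichment was highest at H4C3 (2.68), H4C8 (2.55) and H1-3 (2.52), and lowest at H3C11 (2.04) and at H3C3 and H2BC3 (2.12), which share a peak. H4C8 was acetylated over 1960 and 1768 bp in the siControl pair, 1966 and 1948 bp in the siControl+TGFβ pair, and 180 and 1966 bp in the siPHF13+TGFβ pair. The low value is that of the short list.

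The genes without acetylation were partly neighbours. H4C7, H3C7, H2BC9 and H3C8 follow one another over 24.4 kb (chr6:26247224-26271641), with acetylated H1-3 12 kb before them and acetylated H2BC10 1.52 kb after them. The other 4 stood alone. H1-1 lies 2.66 kb from H3C1, H1-6 lies 4.20 kb from H4C3, H4C9 lies 6.24 kb and 7.57 kb from its acetylated neighbours, and H3C12 lies 2.36 kb from the nearer of its own.

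H3K27me3 was nearly absent from the members, those without H3K4me3 included. A peak reached 1 window, that of H4C7, over 519 bp in siControl replicate 2 and 0 bp in the other 5 libraries, and the other 49 members had none in any list. Of other coding genes, 2286 (11.4%) had H3K27me3 in all 6 lists and 29.6% in at least 1. The nearest H3K27me3 peak lay at a median of 44.8 to 91.3 kb from a member's TSS and of 9.54 to 41.0 kb from that of another coding gene. Within 5 kb of a peak were 3 members in siControl replicate 2 and 0 in the other libraries, against 22.3% to 41.4% of other coding genes. H1-1, H1-6, H3C8, H4C9 and H3C12 thus had none of the 3 marks in any list.

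Most marked histone genes had their H3K4me3 beside the TSS rather than on it. Among members with a peak in the window, the TSS itself was covered in 11 of 40 and 12 of 44 in the siControl pair, 20 of 44 and 15 of 43 in the siControl+TGFβ pair, and 14 of 43 and 15 of 44 in the siPHF13+TGFβ pair. The median over lists was 33.3% (range 27.3% to 45.5%), against 82.0% (74.8% to 86.2%) for other coding genes with a peak, and no list of one range reached the other. Peaks on both sides with a gap at the TSS were found in a median of 45.5% of marked members (37.2% to 52.3%), against 7.55% to 13.7% of other coding genes. A peak on either side can be that of a neighbour, as 29 of the 50 members share part of their window with another. The gap was 356 to 606 bp wide at the median in members and 305 to 330 bp in the others.

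H3K27ac left the TSS free still more often. It covered the TSS in 2 of 40 and 0 of 41 acetylated members in the siControl pair, 11 of 41 and 10 of 42 in the siControl+TGFβ pair, and 0 of 16 and 10 of 42 in the siPHF13+TGFβ pair. In the same order, 45.3%, 56.5%, 77.1%, 58.5%, 19.4% and 79.2% of other acetylated coding genes had it there. The share thus moved with the list for both sets of genes. Of the 50 members, 27 had no H3K4me3 on the TSS in any list and 35 no H3K27ac. These counts include the 6 and 8 members without any peak of the mark. Of 20113 other coding genes, 7177 and 10424 had none on the TSS, which include 5873 and 8457 without any peak. The TSS was under H3K4me3 in all 6 lists at H3C1, H4C1, H2BC6, H2AC8, H2BC10 and H2AC16. In 9 members H3K4me3 lay on both sides with a gap at the TSS in all 6. These were H3C2, H2BC3, H2BC5, H2BC11, H2AC11, H2BC12, H2BC13, H2AC13 and H2AC17. At each of the 9, the peaks before the TSS, merged over lists, also reached the window of another member. The gap there need not lie within the mark of a single gene.

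Other histone genes stood in the same range. The 14 replication-dependent histone genes elsewhere in the genome had a median of 23.1% for H3K4me3 (7.69% to 38.5%), which overlaps the members. Of the 11 replacement histone genes, which are expressed outside S phase, 10 had a peak and 3 of those (30%) had the TSS covered in each list. The 16 other coding genes lying between the members stood at 85.7%, other genes with 1 exon (1013) at 70.6%, and other genes with TATAAA 40 to 20 bp before the TSS (842) at 62.9%, the last sets without the 14 replication-dependent histone genes. Among the members, the 27 with TATAAA in that position had the TSS covered in 21.4% at the median and the 23 without it in 47.4%. Counting the strongest 50% of each list in place of all peaks gave a covered TSS in 40.6% of marked members and 84.2% of other coding genes. The split to both sides was less frequent with those peaks, at a median of 17.0% of marked members (4% to 28.1%) against 4.78% of other coding genes. With the gene's 5′ end in place of the canonical TSS, the covered TSS was at 32.6% for members and 78.0% for other coding genes.

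**Figure D2:**
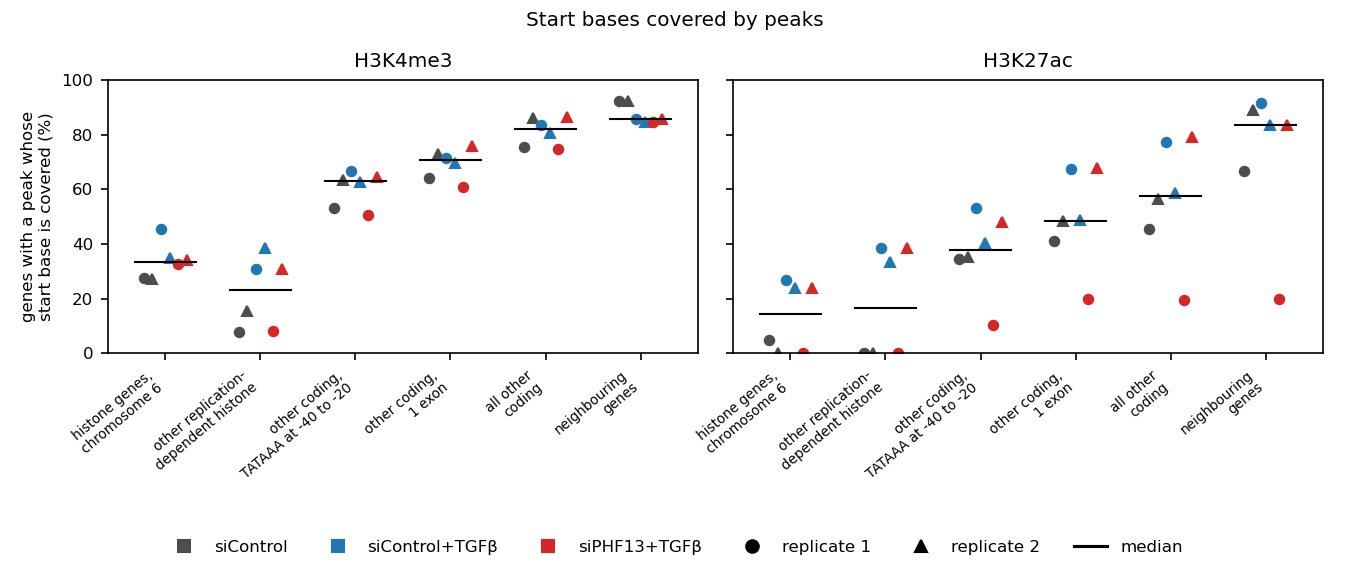
Share (%) of genes with a peak in the window whose TSS lay within a peak, with 1 point per library, for members, other replication-dependent histone genes, neighbours, and other coding genes, those with 1 exon and those with TATAAA. For H3K4me3 the 6 points of the members lie between 27.3% and 45.5%, and those of other coding genes between 74.8% and 86.2%.

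At the 7 divergent H2A/H2B pairs the DNA between the TSSs was often free of the marks. It held no H3K4me3 in 5 and 7 of them in the siControl libraries, 5 and 4 in the siControl+TGFβ libraries, and 6 and 6 in the siPHF13+TGFβ libraries, and no H3K27ac in 7 and 7 and in 5 and 5 of them in the first groups and in 6 in siPHF13+TGFβ replicate 2. In siPHF13+TGFβ replicate 1, 5 of the 7 pairs had no H3K27ac within 1000 bp on either side, so that list shows no gap there. The 1000 bp beyond the TSSs were covered by H3K4me3 over a median of 51.9% to 89.1% on the left and 72.3% to 96.3% on the right. H2BC4/H2AC6 had no H3K4me3 on the left in siControl replicate 1 and siPHF13+TGFβ replicate 1, so those lists show no gap there. H2BC11/H2AC11 and H2BC13/H2AC13 were free of H3K4me3 between the TSSs in all 6 lists, and of H3K27ac in the 5 lists that had it beside them. At H2AC12/H2BC12, whose letters are given above, H3K4me3 was absent in 5 lists and covered 9.2% in the remaining one. H2AC15/H2BC15 varied by list, with no H3K4me3 between the TSSs in 3 lists and up to 100% covered in the others, and H2AC14/H2BC14 was free in 3 lists and covered up to 62.7%. The values of H2BC13/H2AC13, H2AC12/H2BC12 and H2AC14/H2BC14 are uncertain for the repeated words in their windows.

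To examine whether TGFβ changed the marks at the histone genes, the base pairs of the window in peaks were compared between siControl+TGFβ and siControl on the log2(bp + 100) scale, with limma fitted over all coding genes with a peak in at least 1 list. H3K4me3 was somewhat wider after TGFβ at most members, and no member passed the test. The median change was +0.15 over 44 members, with 37 positive and 7 negative values, against a median of 0.07 over all 14284 genes tested. It was 0.05 without siControl replicate 1, 0.09 without siControl+TGFβ replicate 1, and 0.25 and 0.29 without replicate 2 of siControl+TGFβ and of siControl. After centring each library on its median gene, 31 were positive and 13 negative. Limma with Benjamini-Hochberg adjustment called 0 of 44 members and 9 of 14284 genes (0.0630%). In 22 of 44 members (50%) both siControl+TGFβ libraries lay above both siControl libraries, against 35.8% of all genes tested.

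H4C13, 1 of the genes for H4, had the smallest p-value. It was covered over 962 and 929 bp in the siControl pair, 1327 and 1346 bp in the siControl+TGFβ pair, and 944 and 960 bp in the siPHF13+TGFβ pair, so the siControl+TGFβ libraries stood above the other 4. Its change was +0.46 ± 0.04 (SE, n = 2 per group, limma adjusted p = 0.244). H1-2, whose widths are given above, changed by +0.46 ± 0.10 and H4C11 by +0.37 ± 0.13, and these 3 of 44 were the members with an unadjusted p under 0.05, against 477 genes higher and 34 lower of 14284. Without siControl replicate 2 there were 10 such members, and without any other single library 2 to 4. H4C13 was named after its values were seen. The largest changes, +1.95 ± 1.71 at H3C4 and +0.97 ± 1.39 at H2BC9, were within their error and rest on siControl replicate 1, which had no peak at either gene. The smallest were -0.31 ± 0.29 at H3C10 and -0.09 ± 0.16 at H1-4.

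H3K27ac was wider on average after TGFβ, at histone genes and over all genes. The change was positive at 42 of 42 members with a median of 0.38, but the median over all 11698 genes tested was 0.50, and after centring the libraries 12 members were positive and 30 negative. With lists of equal length the members' median was 0.01, with 15 positive and 15 negative, and it was 0.18 without siControl replicate 1 and 0.20 without siControl+TGFβ replicate 1. Limma called 0 members and 0 genes (0%) at the adjusted threshold, and 0 members and 91 genes had an unadjusted p under 0.05. Both siControl+TGFβ libraries lay above both siControl libraries in 23 of 42 members (54.8%), against 50% of all genes tested. H2AC14 and H2BC14 share a divergent promoter and had the largest changes, +1.37 ± 1.40 and +1.23 ± 1.40, with values that are uncertain for the repeated words in their windows. H2AC14 was acetylated over 310 and 765 bp in the siControl pair, 1664 and 1237 bp in the siControl+TGFβ pair, and 0 and 1555 bp in the siPHF13+TGFβ pair. The smallest changes were +0.03 at H3C1 and +0.04 at H1-5, which change sign after centring.

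Peak height was also compared. For H3K4me3 it was lower after TGFβ at 29 of 40 members with a peak in all lists (median -0.08 on the log2 scale, against -0.02 over all 13436 genes), with 0 genes called by limma (0%) and 2 members lower at an unadjusted p under 0.05, against 71 genes higher and 198 lower. The median ranged from -0.16 without siControl replicate 1 to -0.03 without siControl replicate 2. For H3K27ac, 16 members and 3635 genes could be tested, and limma called 0 (0%), with 0 members at an unadjusted p under 0.05 and a members' median of -0.18 against 0.11 over all genes. With a peak required in the 5 libraries other than siPHF13+TGFβ replicate 1, 40 members had a median of -0.07, 14 positive and 26 negative, against 0.15. No member gained a peak in both siControl+TGFβ libraries that both siControl libraries lacked, nor lost one. Such gains and losses touched 0.198% of 20163 coding genes for H3K4me3, 1.5% for H3K27ac and 0.729% for H3K27me3. At H4C7, the single member tested for H3K27me3, the change was -1.31 ± 0.96 (limma adjusted p = 1), from 1 library of siControl. Limma called 0 of 5959 genes (0%) for that mark in either comparison, with 147 and 191 genes at an unadjusted p under 0.05.

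To examine the effect of PHF13 depletion under TGFβ, siPHF13+TGFβ was compared with siControl+TGFβ, the same libraries that served in the TGFβ comparison. H3K4me3 was narrower at most members, and this depended on single libraries. The median change was -0.18 over 44 members, with 38 negative, against -0.12 over all genes tested, and without siPHF13+TGFβ replicate 1 it was 0.01, with 22 positive and 22 negative. Without siControl+TGFβ replicate 1 it was -0.06, with 14 positive and 30 negative. It was -0.25 and -0.33 without replicate 2 of siControl+TGFβ and of siPHF13+TGFβ. After centring, 25 members were negative and 19 positive. Limma called 0 members and 9 of 14284 genes (0.0630%). Both siPHF13+TGFβ libraries lay below both siControl+TGFβ libraries in 14 of 44 members (31.8%), against 43.9% of all genes tested.

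H4C13 and H1-2, whose widths are given above, had changes of -0.45 ± 0.04 (limma adjusted p = 0.223) and -0.41 ± 0.10 (limma adjusted p = 0.606). As both comparisons use the siControl+TGFβ libraries, a high value there gives a positive change in one and a negative change in the other. The most negative changes were -1.93 ± 1.71 at H3C4 and -0.71 ± 0.36 at H2AC4. The most positive were +0.18 ± 0.19 at H2BC11 and +0.14 ± 0.08 at H4C4. H4C4 had 1022 and 922 bp with siControl+TGFβ against 1022 and 1134 bp with siPHF13+TGFβ, so the groups touched.

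H3K27ac at the members followed the short list. The median change was -1.44 over 42 members, with 41 negative, against -1.28 over all genes tested. Without siPHF13+TGFβ replicate 1 it was 0.08, with 29 positive and 13 negative, and after centring 27 were positive and 15 negative. Limma called 0 members and 0 genes (0%), with 0 members and 4 genes at an unadjusted p under 0.05. Both siPHF13+TGFβ libraries lay below both siControl+TGFβ libraries in 8 of 42 members (19%), against 10.3% of all genes tested. H4C11 had 1890 and 1741 bp in the siControl+TGFβ pair against 0 and 1951 bp in the siPHF13+TGFβ pair, which spans them (-2.08 ± 1.40). H2AC6 changed by -2.08 ± 1.40, H3C1 by -0.33 ± 1.40 and H3C4, with 312 bp in 1 siControl+TGFβ library and 663 bp in 1 siPHF13+TGFβ library, by +0.44 ± 1.40.

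**Figure D3:**
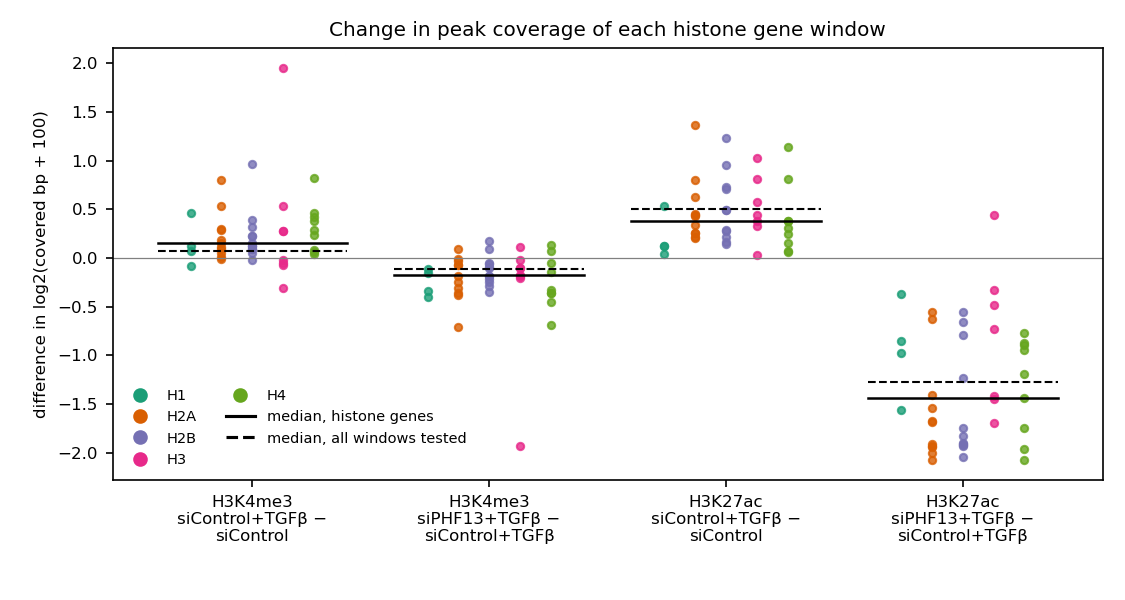
Log2 change in covered base pairs of each tested member in both comparisons, for H3K4me3 and H3K27ac (n = 2 libraries per group). Points are coloured by histone family, and lines give the median of the members and the median over all genes tested. Standard errors are not drawn. No member passed the adjusted threshold, and the H3K27ac changes for siPHF13+TGFβ had a median of -1.44 over the members.

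The height of H3K4me3, given as fold enrichment, was higher in siPHF13+TGFβ at 38 of 40 members (median +0.17 on the log2 scale, against 0.08 over all 13436 genes). Limma called 0 of them and 0 genes (0%), and 12 of 40 members were higher at an unadjusted p under 0.05 (lowest limma adjusted p = 0.905), against 572 genes higher and 119 lower of 13436. That count was 4 without siControl+TGFβ replicate 1, 1 without siControl+TGFβ replicate 2, 4 without siPHF13+TGFβ replicate 1 and 0 without siPHF13+TGFβ replicate 2. Without siPHF13+TGFβ replicate 1 the median was +0.19, with 32 members higher and 8 lower. For H3K27ac limma called 0 of 3635 genes (0%), and 0 of 16 members had an unadjusted p under 0.05. No member gained or lost a peak in both libraries for any mark, against 0.456% of coding genes for H3K4me3, 0.233% for H3K27ac and 1.14% for H3K27me3.

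The genes that serve the histone locus had these marks as well. NPAT, the coactivator of histone transcription, had H3K4me3 and H3K27ac in 6 lists, and SLBP had H3K4me3 in 6 and H3K27ac in 5. All 10 genes for transcription factors and regulators of the histone genes and all 10 for 3′-end processing had H3K4me3 in 6 lists. H3K27ac was in the fewest lists at LSM11, a part of the U7 particle (2 lists), CCNE2, which encodes cyclin E2 (3 lists), and ERI1, a nuclease of histone mRNA (3 lists). Of 14 replication-dependent histone genes outside the region 12 had H3K4me3 in all 6 lists, and H3-4 had it in none. Of the 11 replacement histone genes 10 had it in all 6, H3-5 had it in none, and MACROH2A2 had H3K27me3 in 6.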

How the data were processed

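ChIP-seq peak lists of H3K4me3, H3K27ac and H3K27me3 from 18 libraries were used, and the 6 input samples were not analysed here. The authors, per the submitters' processing notes and the study's methods, trimmed reads with Trim Galore 0.4.1, aligned them to hg19 with Bowtie2 2.4.1, removed duplicates with Picard and called peaks against input with MACS2 2.2.7.1, separately in each library, as narrow peaks for H3K4me3 and H3K27ac and broad peaks for H3K27me3. deepTools 3.5.0 is also listed. The deposited columns used were peak coordinates, a score (the whole-number form of 10 times the −log10 q), a fold enrichment (a ratio over input), and −log10 values of p and q. The lowest deposited −log10 q was 1.30 in narrow and 1.00 in broad lists, below the threshold stated for narrow peaks. Covered base pairs also depend on how deeply a library was sequenced and how well it was enriched.

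Genes were those of GENCODE release 44 on GRCh37, the chromosome sequences of hg19, and peaks on 24 chromosomes ended within them, with 0 exceeded. The TSS was that of the canonical transcript, or the gene's 5′ end for HIST1H4B. The rule's window of 1 kb was read as 1000 bp to each side. Intervals were handled in Python 3.11.15 with NumPy 2.4.6 and pandas 2.3.3. Covered base pairs, as log2(bp + 100), were tested with limma 3.58.1 in R 4.3.3, with the 3 groups in a single fit without a replicate block, over genes with a peak in at least 1 of 6 lists. Fold enrichment was tested likewise over genes with a peak in all 6. The Benjamini-Hochberg adjusted p-value threshold was 0.05. For 2 libraries against 2, an exact permutation test cannot go below p = 0.333. Interval counting and the fits were tested on simulated data. Members and lists were chosen with earlier results of these data known. Named were, by rule, the H1 genes, members lacking H3K4me3 in at least 1 list or H3K27ac in 3 or more, members with H3K27me3, the 2 largest and 2 smallest coverage changes per comparison, and the 3 highest and 3 lowest fold enrichments per narrow mark. Alternatives are given in the closing section.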

Additional observations from a re-analysis of the deposited data

How the results depend on the processing

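Libraries left out in turn, window size, pseudocount, centring, peak threshold and list length were varied, and TGFβ below means siControl+TGFβ against siControl and depletion means siPHF13+TGFβ against siControl+TGFβ. Genes called for H3K4me3 coverage, 9 in each comparison, numbered 18 (TGFβ) and 19 (depletion) with 500 bp to each side, 17 for depletion with 2000 bp, and 115 and 167 with the strongest 50% of peaks. They numbered 2 and 2 with lists of equal length, 1 and 1 with a pseudocount of 500 bp, 1 and 1 after centring, 1 and 0 with only the 4 libraries compared, and 0 and 0 over windows with a peak in all 6 lists. Without a library they ranged from 0 to 93 in both. With the replicate block they numbered 0 and 0, and 5 members in place of 12 had higher H3K4me3 fold enrichment at an unadjusted p under 0.05 for depletion. Same-numbered samples deviated with correlations of -0.36 and -0.23 for H3K4me3, -0.21 and 0.00 for H3K27ac and -0.02 and 0.03 for H3K27me3. What the numbers pair was not tested. For H3K4me3 coverage the crossed block, chosen after seeing the data, gave 0 and 0. H3K27ac calls for depletion were 0 in the main analysis and 8209 without siPHF13+TGFβ replicate 2, which leaves the short list alone (36 of 42 members called lower), with a range of 0 to 8209 over libraries left out, and its fold enrichment calls ranged from 0 to 100. H3K27me3 calls, 0 in both, were 5 and 7 with 500 bp, 6 and 8 with lists of equal length, and 0 to 539 and 0 to 765 without a library.

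The members' median H3K4me3 change with TGFβ (0.15) was 0.42 with the strongest 50% of peaks, and that for depletion (-0.18) ranged from -0.33 to 0.011 without a library. The H3K27ac median with TGFβ (0.38) was 0.01 with lists of equal length and 0.37 with the strongest 50% (35 positive, 5 negative). The H3K27ac median for depletion (-1.44) was 0.28 after centring and 0.08 without siPHF13+TGFβ replicate 1. At H4C7, the H3K27me3 change with TGFβ (-1.31) ranged from -2.63 to -1.31 without a library, the former without siControl replicate 1, where limma called it lower (1 member), and that for depletion (0) was 1.66 after centring.

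Genes gained or lost in both libraries were more numerous under these alternatives. For H3K4me3 they went from 40 (TGFβ) and 92 (depletion) to 170 and 305 with the strongest 50%, and to 85 to 328 and 122 to 456 without a library. For H3K27ac they went from 303 and 47 to 598 and 100 with the strongest 50%, 332 for depletion with lists of equal length, and 374 to 1541 and 76 to 6734 without a library. For H3K27me3 they went from 147 and 229 to 348 to 886 and 457 to 1586. Members gained or lost, 0 in the main analysis, numbered 3 and 1 for H3K4me3 with the strongest 50%, 1 for H3K27ac with TGFβ, and 2 and 2 for H3K27ac with lists of equal length. Without a library they ranged over 0 to 3 and 0 to 1 for H3K4me3, 0 to 1 and 0 to 25 for H3K27ac, and 0 to 1 for H3K27me3 with TGFβ. The 25 arise without siPHF13+TGFβ replicate 2. The share of members with H3K4me3 on the TSS (33.3%) was 40.6% with the strongest 50%. Members with H3K27ac, 41 per list at the median, were 21 with lists of equal length, and 40 in place of 16 had it in all lists without siPHF13+TGFβ replicate 1, also chosen after seeing the data.

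Of single members, H1-4 (H3K4me3, TGFβ) became 0.17 with 2000 bp and 1.63 with the strongest 50%, and -0.25 to 0.071 without a library. H2BC9 became -0.19 with lists of equal length and -0.90 to 2.83 without a library. For depletion, H2BC11 became -0.086 and H4C4 -0.14 with 2000 bp, and H4C4 -1.61 with the strongest 50%. For H3K27ac with TGFβ, H3C1 became -0.53 and H1-5 -0.52 after centring, H1-5 -3.17 with lists of equal length, and without a library they ranged over 0.00 to 0.052 and -0.031 to 0.11. For depletion, H4C11 ranged from -4.26 to 0.10 without a library, H2AC6 was 0.034 with lists of equal length, H3C4 was -1.22 with 2000 bp and -1.02 to 1.91 without a library, and H3C1 was 1.39 after centring and -0.67 to 0.015 without a library. The causes of these changes were not tested. No list gives read counts, so what depth limits cannot be stated.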
